A study of Monodelphis domestica with 18 samples.

Results

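The genes described here are 30 genes of cholesterol and lipid synthesis in OK cells, an opossum kidney line with features of the proximal tubule, which were cultured under orbital shear stress (OSS) or under static conditions. They were chosen by gene name, from knowledge of the pathways but with earlier results of these data known, and looked up among the 23899 genes with counts. The 30 names matched 32 identifiers, because FDPS and STARD4 each had 2, and 31 identifiers passed the expression filter, a CPM (counts scaled to a common library total) above 1 in at least 6 of the 18 libraries. ELOVL6, a fatty acid elongase, did not pass (15 to 45 counts per library) and was not tested, so it has no call below. Reads can be shared between the 2 copies of FDPS and of STARD4, and values of these copies are uncertain.

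OK cells were grown on permeable supports, and the next day some filters went onto a shaker turning at 146 rpm. OSS cells were taken after 12, 48 and 96 h, and static cells at 0, 48 and 96 h, with 3 libraries per condition (OSS 12 h, OSS 48 h, OSS 96 h, Static 0 h, Static 48 h, Static 96 h). All cells were the same line without any genetic change, and each library pooled RNA from 3 experiments. There was no static library at 12 h, so in OSS 12 h against Static 0 h the effect of OSS and that of the 12 h in between cannot be told apart.

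Cells make cholesterol from acetyl-CoA through the mevalonate pathway, which leads to isoprenoid units, squalene, lanosterol and finally cholesterol. The transcription factor SREBP-2, encoded by SREBF2, drives these genes when sterols in the endoplasmic reticulum are low, and SREBP-1, encoded by SREBF1, acts mostly on genes of fatty acid synthesis. SCAP carries the SREBP precursors to the Golgi for cleavage, and the INSIG proteins hold SCAP back when sterols are plentiful. In the proximal tubule these lipids supply the large apical and endosomal membranes through which filtered proteins are taken up.

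Levels are CPM scaled by the TMM method, given for replicates 1, 2 and 3 in that order, and means are ± SD over 3 libraries. Fold changes are on the log2 scale, with a standard error (SE) from edgeR's quasi-likelihood test. A gene rose or fell where its Benjamini-Hochberg adjusted p over the 12840 tested genes was under 0.05. Total counts were 40154553 to 79745362 per library. Proximal tubule markers were present (LRP2, 2839.8 to 6869.9 CPM, and CUBN, 1037 to 2555 CPM), but AQP1 lay at 0.231 CPM or less in every library. Endothelial and immune defining markers were near 0 (CDH5 up to 0.137 CPM, PTPRC up to 0.787 CPM), whereas the fibroblast marker COL1A2 lay at 21.0 to 55.4 CPM. In such bulk samples, a change in the share of cells and a change in RNA per cell cannot be told apart.

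The libraries of a condition differed, and from 48 h on the same replicate numbers lay high and low. There, replicate 3 had the highest level of its condition for 27 to 29 of the 31 tested identifiers, and replicate 1 had the lowest for 24 to 27. In the early libraries the order differed, with replicate 3 lowest for 21 of 31 in OSS 12 h and for 17 in Static 0 h. Static 48 h replicate 1 stood farthest apart. MSMO1, a sterol demethylating enzyme, lay at 55.6, 191 and 359.9 CPM in Static 48 h, while NSDHL, the next enzyme in that demethylation, lay at 7.88, 2.69 and 1.38 CPM and SREBF1 at 24.0, 12.2 and 15.8 CPM. In that library most sterol genes were at their lowest, while NSDHL and SREBF1 had their highest levels of the 18 libraries. The median ratio of the highest to the lowest library over the 31 identifiers was 2.05 in Static 48 h, against 1.23 in Static 0 h. Deviations from the condition means over these 31 identifiers correlated at -0.35 to 0.72 between same-numbered libraries of different conditions (45 pairs, median 0.35) and at -0.63 to 0.46 between other numbers (median -0.13). Over all tested genes every same-numbered pair was above 0.1, so counts of calls are also given with the replicate number as a block. Of the single genes that changed with the block, only some are named.

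**Figure D1:**
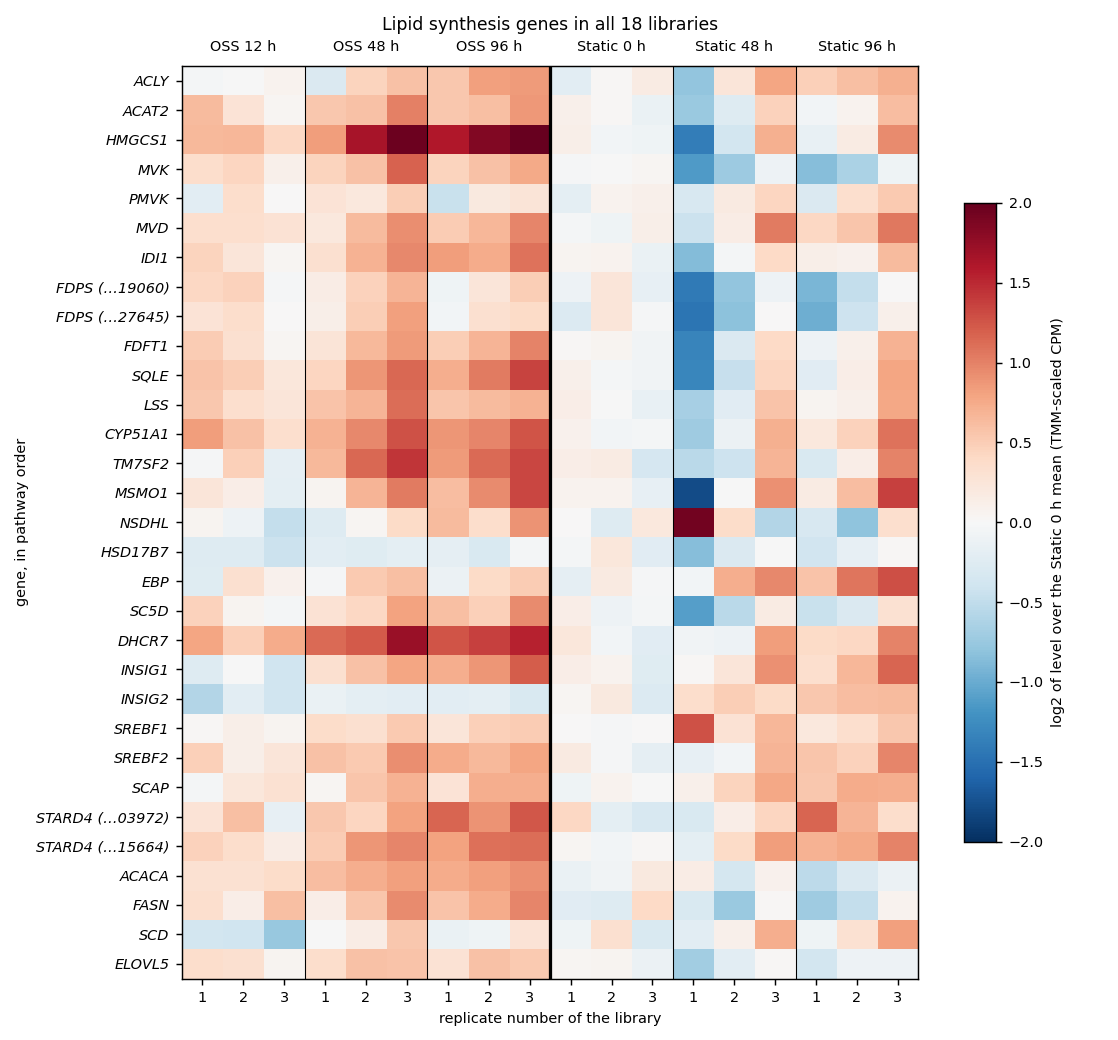
Level of each tested gene (rows, in pathway order) in all 18 libraries (columns), as log2 of the TMM-scaled CPM over the Static 0 h mean, on a color scale from -2.0 to 2.0. HMGCS1 and DHCR7 are above that mean in all 9 OSS libraries, and Static 48 h replicate 1 is the column with the most blue.

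After 96 h, HMGCS1, MVK, IDI1, SC5D, DHCR7, ACACA, FASN and ELOVL5 were higher under OSS than under static conditions, and INSIG2 and EBP were lower. These were 2 of 6 genes of acetyl-CoA supply and the mevalonate steps, 3 of 4 of fatty acid synthesis and 3 of 14 between IDI1 and cholesterol that rose. In OSS 96 h against Static 96 h, 8 identifiers rose, 2 fell and 21 did not pass. Over all tested genes, 25.5% rose and 26.2% fell (51.6% in either direction), so the share that rose here was near the background and the share that fell was below it. The median log2 fold change of the 31 was 0.41, against -0.0020 over all tested genes, and 25 of them were above 0. That median became 0.67 when Static 96 h replicate 3 was left out, whereas leaving out OSS 96 h replicate 3 gave 0.30. With the replicate number as a block, 23 of the 31 passed, 20 of them higher, beside 64.7% of all tested genes. Leaving out Static 96 h replicate 3 gave 19 calls in place of 10, and leaving out Static 96 h replicate 2 gave 7. DESeq2 called 15, beside 53.7% of all tested genes, adding ACAT2, both FDPS copies, FDFT1 and NSDHL.

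The fit for 48 h used all 18 libraries and that for 96 h only its own 6, so their counts are not directly comparable. On its own 6 libraries, 48 h gave 7 calls, against 10 at 96 h. In OSS 48 h against Static 48 h, 16 of the 31 rose, 1 fell and 14 did not pass, while 23.5% of all tested genes rose and 24.5% fell (48% in either direction). The median log2 fold change was 0.75 in these genes and -0.033 over all tested genes, and that of these genes was 0.49 without Static 48 h replicate 1. Every one of the 6 identifiers from IDI1 to LSS in pathway order was among those that rose. On the 6 libraries of 48 h alone, all of these but FDPS (ENSMODG00000019060) lost the call (edgeR adjusted p = 0.0537 to 0.145). HMGCS1, ACAT2, CYP51A1, TM7SF2 and SC5D lost theirs there as well (0.052 to 0.0824). This count depended on single libraries. It was 8 when OSS 48 h replicate 3 was left out. Leaving out Static 48 h replicate 1 gave 11 calls, and leaving out Static 48 h replicate 3 gave 22. With the replicate block 19 passed, beside 59.6% of all tested genes. When fitted on its own 6 libraries in place of all 18, the number of calls was 7, beside 4532 of all tested genes.

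After 12 h of OSS, 5 of the 31 rose against Static 0 h, none fell and 26 did not pass, beside 6.45% of all tested genes that rose and 6.65% that fell (13.1% in either direction). HMGCS1, MVD, SQLE, CYP51A1 and DHCR7 were the 5, and the median of the 31 was 0.28, against -0.0042 over all tested genes. None of the 5 was called when OSS 12 h replicate 1, OSS 12 h replicate 2 or Static 0 h replicate 2 was left out, and 3 were called without Static 0 h replicate 1. With the replicate block, 20 of the 31 passed, 17 higher and 3 lower, beside 41.2% of all tested genes. In the same comparison DESeq2 called 8, of which 7 were higher and 1 (SCD) lower, beside 21.7% of all tested genes. Fitted on all 18 libraries none of the 5 passed (adjusted p = 0.053 for DHCR7 to 0.449 for MVD), and INSIG2 was the 1 call, lower in OSS 12 h.

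**Figure D2:**
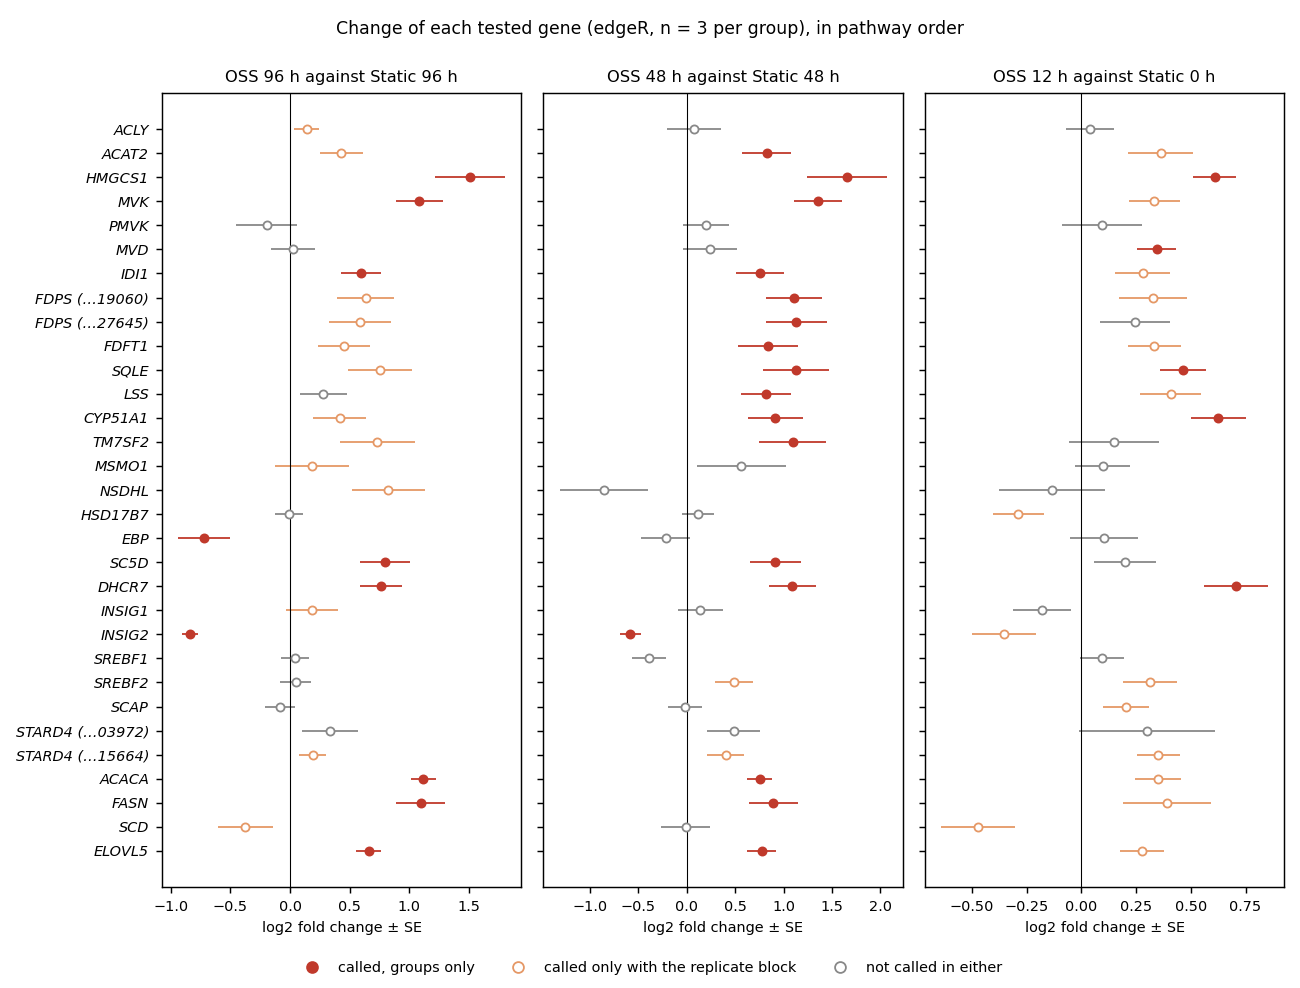
Log2 fold change ± SE (horizontal axis, with a separate range in each panel) of the 31 tested identifiers in pathway order for OSS against Static at 96 h (left) and 48 h (middle) and for OSS 12 h against Static 0 h (right), n = 3 per group. Filled red points passed edgeR's test on the groups only, open orange points passed only with the replicate block, and gray points passed in neither. Most points lie right of 0, and INSIG2 lies left of it in every panel.

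HMGCS1 encodes the synthase that condenses acetyl-CoA with acetoacetyl-CoA at the entry of the mevalonate pathway. It lay at 948, 1124 and 1456 CPM in OSS 96 h, against 282, 351 and 602 CPM in Static 96 h. After 48 h it lay at 556, 976 and 1216 CPM under OSS and 120.2, 242 and 511 CPM under static conditions, and the early libraries held 489, 497 and 416 CPM in OSS 12 h and 340.1, 303 and 295 CPM in Static 0 h. In each of these 3 pairs of groups, every OSS library was above every static one. The log2 fold change was 1.51 (SE 0.29, edgeR adjusted p = 0.0045) at 96 h, the highest of the 31 in that comparison, and 1.65 (SE 0.41, adjusted p = 0.00405) at 48 h. For OSS 12 h against Static 0 h it was 0.61 (SE 0.10, adjusted p = 0.0152), a call that was lost without OSS 12 h replicate 1 (adjusted p = 0.0593), OSS 12 h replicate 2 (0.0601) or Static 0 h replicate 2 (0.0607). The call at 48 h held without Static 48 h replicate 1, at 1.28 (adjusted p = 0.0111), but not on the 6 libraries of that time alone (adjusted p = 0.052). Per kilobase of the deposited gene length, HMGCS1 was the most abundant of the 31 in OSS 96 h (313 CPM per kb), whereas in Static 96 h ACLY (217 CPM per kb), FDFT1 (163) and EBP (117) were above it (109.5). How fully the reads of each gene aligned to the reference genome was not tested, so levels compared between genes are approximate.

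MVK encodes mevalonate kinase, the first of the kinases that activate mevalonate. It had fewer reads, at 15.3, 16.8 and 18.9 CPM in OSS 96 h and 6.23, 7.21 and 10.5 CPM in Static 96 h. At 48 h the values were 15.2, 16.8 and 25.4 CPM under OSS and 5.09, 6.77 and 10.4 CPM under static conditions. The groups did not overlap at either time. MVK rose by 1.08 (SE 0.20, adjusted p = 0.00342) at 96 h and by 1.36 (SE 0.25, adjusted p = 0.000395) at 48 h in edgeR. Static cells held 10.9, 11.2 and 11.4 CPM at 0 h, above every later static library. With the replicate block MVK was lower in Static 48 h than in Static 0 h (-0.67, adjusted p = 0.0167), and it did not pass without the block. Leaving out Static 48 h replicate 1, without the block, gave -0.40 (edgeR adjusted p = 0.252).

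The other genes of these first steps changed less. ACAT2, a thiolase that supplies acetoacetyl-CoA, rose at 48 h (0.83, SE 0.25, edgeR adjusted p = 0.0144), a call that ended without OSS 48 h replicate 3 (0.0677), Static 48 h replicate 1 (0.0601) or Static 48 h replicate 2 (0.0531). At 96 h ACAT2 passed with the block (0.45, adjusted p = 0.00103, against 0.0858 without it). ACLY, the citrate lyase that makes cytosolic acetyl-CoA, had a log2 fold change of 0.14 at 96 h, with an adjusted p of 0.29 on the groups only and 0.049 with the block. PMVK and MVD, which carry out the next phosphorylation and the decarboxylation, passed at neither 48 nor 96 h (-0.20 and 0.025 at 96 h), though MVD was called for OSS 12 h against Static 0 h (0.34, adjusted p = 0.0434). That MVD call was lost without any 1 of 5 of the 6 libraries, all but Static 0 h replicate 3 (adjusted p = 0.0946 to 0.141).

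IDI1, which interconverts the isoprenoid units, lay at 29.5, 27.4 and 35.1 CPM in OSS 96 h against 17.8, 17.5 and 25.4 CPM in Static 96 h, with no overlap. It rose by 0.60 (SE 0.17, edgeR adjusted p = 0.0212), but not without OSS 96 h replicate 3 (0.0646), Static 96 h replicate 1 (0.0528) or Static 96 h replicate 2 (0.0712), nor when fitted on all 18 libraries (adjusted p = 0.0579). At 48 h its log2 fold change was 0.76 (adjusted p = 0.0202), and the call was lost without OSS 48 h replicate 3 (0.0899) or Static 48 h replicate 1 (0.0689).

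Farnesyl diphosphate synthase makes the branch point to sterols, ubiquinone and prenylated proteins. Its more abundant copy, FDPS (ENSMODG00000019060), lay at 153, 192 and 222 CPM in OSS 48 h and 52.2, 80.5 and 129.8 CPM in Static 48 h. At 96 h it lay at 131, 164 and 195 CPM under OSS and 74.2, 99.8 and 140.2 CPM under static conditions, and here the groups overlapped. It rose at 48 h (1.11, SE 0.29, edgeR adjusted p = 0.0052), and at 96 h it passed with the block (0.66, SE 0.071, adjusted p = 0.000118, against 0.06 without it).

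The other copy, FDPS (ENSMODG00000027645), had 14.7, 19.0 and 23.8 CPM in OSS 48 h and 4.90, 7.70 and 13.6 CPM in Static 48 h. It rose as well, by 1.13 (adjusted p = 0.00835) at 48 h, although on those 6 libraries alone its adjusted p was 0.0537. Within static culture both copies were lower at 48 h than at 0 h with the block (-0.79 and -0.76, adjusted p = 0.0239 and 0.0249) and did not pass without it (0.138 and 0.217). Leaving out Static 48 h replicate 1, without the block, gave -0.42 and -0.37 (edgeR adjusted p = 0.286 and 0.439). FDFT1, squalene synthase, rose at 48 h only (0.84, adjusted p = 0.0375), and this call ended when OSS 48 h replicate 2 or 3 or Static 48 h replicate 1 or 2 was left out (adjusted p = 0.0806 to 0.12). At 96 h FDFT1 passed with the block (0.48, adjusted p = 0.000505, against 0.12 without it).

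SQLE encodes squalene epoxidase, a rate-limiting enzyme of the later pathway. It lay at 303, 377 and 467 CPM in OSS 96 h and 157, 202 and 319 CPM in Static 96 h, and at 247, 340.1 and 408 CPM in OSS 48 h and 74.1, 134 and 247 CPM in Static 48 h. Static 96 h replicate 3 was above OSS 96 h replicate 1, and at 48 h the groups touched without overlap. SQLE rose at 48 h by 1.13 (SE 0.34, edgeR adjusted p = 0.0128), which did not hold without OSS 48 h replicate 3 (adjusted p = 0.0526). At 96 h it had 0.75 (SE 0.27, adjusted p = 0.0509) on the groups only and 0.80 (SE 0.082, adjusted p = 9.67e-05) with the block. Already in OSS 12 h it lay at 272, 259 and 215 CPM, against 197, 179 and 175 CPM in Static 0 h (0.46, adjusted p = 0.031), a call lost without any 1 of those libraries but OSS 12 h replicate 3 (0.0508 to 0.113). LSS, the cyclase that closes squalene epoxide into lanosterol, rose at 48 h (0.82, adjusted p = 0.0164). It lost that call without OSS 48 h replicate 3 (0.0801), Static 48 h replicate 1 (0.0669) or Static 48 h replicate 2 (0.063). At 96 h LSS passed neither way (0.28, adjusted p = 0.273).

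Between lanosterol and cholesterol, SC5D and DHCR7 rose at 96 h and the isomerase EBP fell. SC5D, the C5 desaturase, lay at 79.1, 72.5 and 99.5 CPM in OSS 96 h and 38.0, 42.4 and 64.0 CPM in Static 96 h. DHCR7, which reduces 7-dehydrocholesterol to cholesterol, lay at 20.4, 22.0 and 24.8 CPM in OSS 96 h and 11.2, 11.3 and 17.0 CPM in Static 96 h. Neither gene overlapped between the groups. SC5D rose by 0.79 (SE 0.21, edgeR adjusted p = 0.0161), though not without Static 96 h replicate 2 (0.0587), and DHCR7 rose by 0.76 (SE 0.18, adjusted p = 0.00944). Their log2 fold changes at 48 h were 0.92 (adjusted p = 0.0106, and 0.0507 without OSS 48 h replicate 3) and 1.09 (adjusted p = 0.00179). DHCR7 in the early libraries lay at 14.7, 11.9 and 14.3 CPM in OSS 12 h and 10.0, 8.26 and 7.32 CPM in Static 0 h. This difference of 0.71 (adjusted p = 0.0249) was called with all 6 libraries and not without any 1 of OSS 12 h replicates 1 to 3 and Static 0 h replicate 2 (0.0581 to 0.0909).

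EBP encodes the sterol isomerase that acts just before SC5D. It went the other way, at 37.3, 53.1 and 57.8 CPM in OSS 96 h and 60.3, 84.7 and 99.2 CPM in Static 96 h, with all OSS libraries below all static ones. EBP fell, with a log2 fold change of -0.72 (SE 0.22, edgeR adjusted p = 0.026). Without OSS 96 h replicate 1 (0.0528) or 2 (0.0588) or Static 96 h replicate 2 (0.0761) or 3 (0.0852) it did not pass, whereas with the block its adjusted p was 1.28e-05. The ratio of OSS to static level within a replicate number was 0.619, 0.627 and 0.582, so the size was alike in the 3 pairs. EBP held 40.0, 58.0 and 61.5 CPM in OSS 48 h and 39.1, 67.3 and 79.2 CPM in Static 48 h, where it did not pass (-0.22, adjusted p = 0.501). Static 0 h had 36.0, 46.0 and 39.7 CPM, and EBP was higher in Static 96 h than in Static 0 h (0.98, SE 0.26, adjusted p = 0.0183). That call was lost without Static 96 h replicate 2 or 3 or Static 0 h replicate 1 or 3 (0.0541 to 0.068).

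CYP51A1, the lanosterol demethylase, lay at 128, 108 and 91.0 CPM in OSS 12 h and 76.3, 69.7 and 70.2 CPM in Static 0 h, with no overlap. It rose by 0.63 (SE 0.13, edgeR adjusted p = 0.0233), but not without OSS 12 h replicate 1 (0.068) or 2 (0.0726) or Static 0 h replicate 2 (0.0885). TM7SF2, a sterol reductase, lay at 20.4, 28.8 and 35.0 CPM in OSS 48 h and 8.97, 9.73 and 20.7 CPM in Static 48 h, where the top static library slightly exceeded the lowest OSS one. Both genes rose at 48 h (CYP51A1 0.91, adjusted p = 0.0159, and TM7SF2 1.10, adjusted p = 0.017), and neither passed there without OSS 48 h replicate 3, Static 48 h replicate 1 or Static 48 h replicate 2 (adjusted p = 0.0582 to 0.0721). At 96 h both passed with the block (CYP51A1 0.45, adjusted p = 0.00297, and TM7SF2 0.81, adjusted p = 0.00182), against 0.156 and 0.0885 without it.

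The C4 demethylation genes gave no call on the groups only. MSMO1 lay at 293, 368 and 484 CPM in OSS 96 h and 216, 295 and 492 CPM in Static 96 h (0.19, edgeR adjusted p = 0.643, and 0.24, 0.0409 with the block). NSDHL was rare, at 3.23, 2.65 and 3.89 CPM in OSS 96 h and 1.67, 1.19 and 2.63 CPM in Static 96 h, without overlap (0.82, adjusted p = 0.0586, and 0.00297 with the block). At 48 h its log2 fold change was -0.86 with all libraries and 0.10 without Static 48 h replicate 1, and it passed in neither (adjusted p = 0.134 and 0.825). HSD17B7, the reductase of the same complex, had -0.0075 at 96 h and 0.12 at 48 h and passed at neither time (adjusted p = 0.962 and 0.576).

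**Figure D3:**
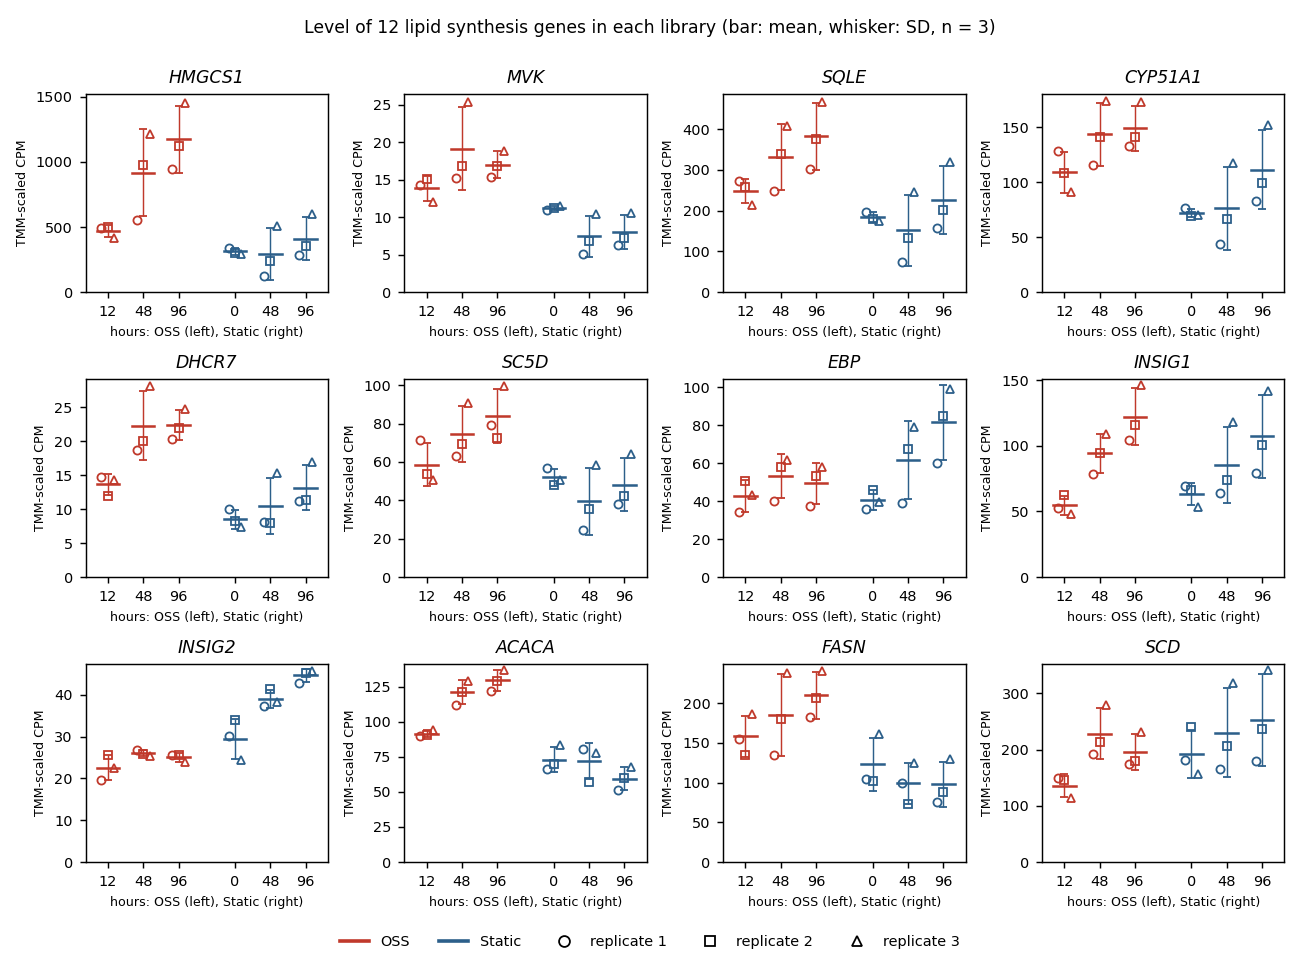
TMM-scaled CPM (vertical axes, from 0) of 12 lipid synthesis genes in each library, by hours under OSS (red, left) and static conditions (blue, right), with bars for the mean and whiskers for the SD of 3 libraries. Symbols mark the replicate number. HMGCS1 reaches 1456 CPM in OSS 96 h replicate 3, while INSIG2 stays between 19.7 and 26.8 CPM under OSS and reaches 45.7 CPM in Static 96 h.

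INSIG2 was the member of the sterol sensing group that differed most. It lay at 25.6, 25.7 and 23.8 CPM in OSS 96 h and 42.9, 45.2 and 45.7 CPM in Static 96 h, and at 26.8, 25.8 and 25.3 CPM in OSS 48 h and 37.4, 41.4 and 38.2 CPM in Static 48 h. The groups were far apart at both times, and replicates differed little. INSIG2 fell, with log2 fold changes of -0.84 (SE 0.065, edgeR adjusted p = 9.95e-05) at 96 h and -0.59 (SE 0.11, adjusted p = 0.000408) at 48 h. These calls held whichever library was left out. Within static culture INSIG2 rose, with 30.2, 33.9 and 24.3 CPM in Static 0 h, 0.39 (adjusted p = 0.0267) for 48 against 0 h and 0.57 (adjusted p = 0.00486) for 96 against 0 h. The call for 48 against 0 h ended without Static 48 h replicate 2 (0.0871) or Static 0 h replicate 1 (0.0611) or 3 (0.0568). OSS 12 h held 19.7, 25.6 and 22.4 CPM, and this was lower than Static 0 h with the block (-0.35, adjusted p = 0.0126) and on all 18 libraries (-0.38, adjusted p = 0.0166), but not on those 6 libraries without the block (0.143) or with DESeq2 (0.0961).

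INSIG1, the other INSIG protein and itself a target of SREBP, did not follow INSIG2. It lay at 105, 116 and 146 CPM in OSS 96 h and 79.3, 100.4 and 142 CPM in Static 96 h, with wide overlap (0.18, edgeR adjusted p = 0.508, and 0.21, 0.0315 with the block). At 48 h it lay at 78.8, 94.7 and 109 CPM under OSS and 64.0, 74.2 and 118 CPM under static conditions and did not pass (0.14, adjusted p = 0.647). INSIG1 did rise along OSS culture. OSS 12 h held 52.9, 62.8 and 48.1 CPM, and the change to OSS 48 h was 0.78 (SE 0.16, adjusted p = 0.00698).

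None of SREBF2, SREBF1 and SCAP passed on the groups only in OSS against Static at 96 h or 48 h, or in OSS 12 h against Static 0 h. SREBF2 and SCAP were higher in OSS 96 h than in Static 0 h. SREBF2 lay at 103, 96.3 and 106 CPM in OSS 96 h and 90.0, 84.5 and 120.4 CPM in Static 96 h (0.046, edgeR adjusted p = 0.796). At 48 h it lay at 92.4, 88.7 and 117 CPM under OSS and 54.6, 58.9 and 98.3 CPM under static conditions (0.49, adjusted p = 0.0501, and 0.0157 with the block). SREBF2 was higher under OSS in each of the 3 pairs there, with ratios of 1.69, 1.51 and 1.19. The groups overlapped at both times. SREBF1 lay at 11.8, 13.8 and 14.2 CPM in OSS 96 h and 11.6, 12.6 and 14.5 CPM in Static 96 h (0.04, adjusted p = 0.797). It lay at 12.8, 12.4 and 14.3 CPM in OSS 48 h, and its rise in Static 48 h against Static 0 h, which held 10.0, 9.82 and 10.0 CPM, (0.79, adjusted p = 0.0267) was 0.47 (adjusted p = 0.0355) without Static 48 h replicate 1, and was not called without any 1 of the Static 0 h libraries (0.0682 to 0.0698). SCAP lay at 156, 213 and 214 CPM in OSS 96 h and 188, 216 and 212 CPM in Static 96 h (-0.084, adjusted p = 0.606).

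STARD4, a carrier of cholesterol between membranes, had a main copy, STARD4 (ENSMODG00000015664), at 116, 142 and 143 CPM in OSS 96 h and 108, 111 and 132 CPM in Static 96 h. It did not pass on the groups only (0.19, edgeR adjusted p = 0.198) and passed with the block (0.19, adjusted p = 0.0261). Static 0 h held 67.6, 63.7 and 66.9 CPM of it. The rare copy, STARD4 (ENSMODG00000003972), stayed between 0.900 and 2.66 CPM in the 18 libraries. It did not pass in OSS against Static at 96 h or 48 h, or in OSS 12 h against Static 0 h. Both copies were higher in OSS 96 h than in Static 0 h.

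Of the tested fatty acid synthesis genes, 3 of 4 rose at 96 h and at 48 h, beside 25.5% and 23.5% of all tested genes. With only 4 genes this share is rough. ACACA, the acetyl-CoA carboxylase that makes malonyl-CoA, lay at 122, 129 and 137 CPM in OSS 96 h and 51.0, 59.6 and 67.7 CPM in Static 96 h. Fatty acid synthase, FASN, lay at 182, 206 and 241 CPM in OSS 96 h and 75.4, 88.4 and 129.8 CPM in Static 96 h. Neither overlapped, and in ACACA the replicates lay close together. ACACA rose by 1.12 (SE 0.11, edgeR adjusted p = 0.000219) and FASN by 1.10 (SE 0.21, adjusted p = 0.00387). At 48 h ACACA lay at 112, 121 and 129 CPM under OSS and 80.6, 57.0 and 77.9 CPM under static conditions, and FASN at 135, 181 and 238 CPM and 99.7, 73.6 and 125 CPM in the same order. Their log2 fold changes were 0.75 (adjusted p = 0.000231) and 0.89 (adjusted p = 0.00955), and FASN lost its call without OSS 48 h replicate 3 (0.0565). For OSS 12 h against Static 0 h both passed with the block (ACACA 0.36, adjusted p = 0.00326, and FASN 0.41, adjusted p = 0.00171), against 0.0651 and 0.226 without it, and DESeq2 called ACACA as well (0.021).

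ELOVL5, an elongase of polyunsaturated fatty acids, lay at 603, 741 and 709.9 CPM in OSS 96 h and 383, 458 and 457 CPM in Static 96 h, and rose without overlap (0.66, SE 0.10, edgeR adjusted p = 0.00185). At 48 h the difference was 0.78 (adjusted p = 0.000608). SCD, the desaturase that makes monounsaturated fatty acids, did not rise with them. It lay at 175, 180.3 and 232 CPM in OSS 96 h and 180.3, 238 and 341 CPM in Static 96 h (-0.38, adjusted p = 0.209, and -0.34, 0.0129 with the block), and at 192, 214 and 279 CPM in OSS 48 h and 166, 206 and 318 CPM in Static 48 h (-0.012, adjusted p = 0.973). All OSS 12 h libraries (149, 145 and 113 CPM) were below all Static 0 h libraries (181, 239.8 and 156 CPM), a difference of -0.47 that passed with the block (adjusted p = 0.00116) and with DESeq2 (0.0344) but not in edgeR without the block (0.104).

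Within replicate numbers, 19 of the 31 identifiers were higher in OSS 96 h than in Static 96 h in all 3 pairs, 4 were lower in all 3 and 8 were mixed. At 48 h the counts were 21, 1 and 9. How many of all tested genes agreed in all 3 pairs was not counted, so these counts have no background beside them. HMGCS1 had OSS to static ratios of 3.36, 3.21 and 2.42 at 96 h, SQLE 1.94, 1.86 and 1.46 and ACACA 2.39, 2.17 and 2.02. In each of these 3 genes the ratio was lowest in replicate 3, whose static libraries held the highest levels. Ratios of NSDHL at 48 h were 0.219, 0.791 and 1.95, so its pairs disagreed, and those of SREBF1 were 0.534, 1.02 and 0.902.

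**Figure D4:**
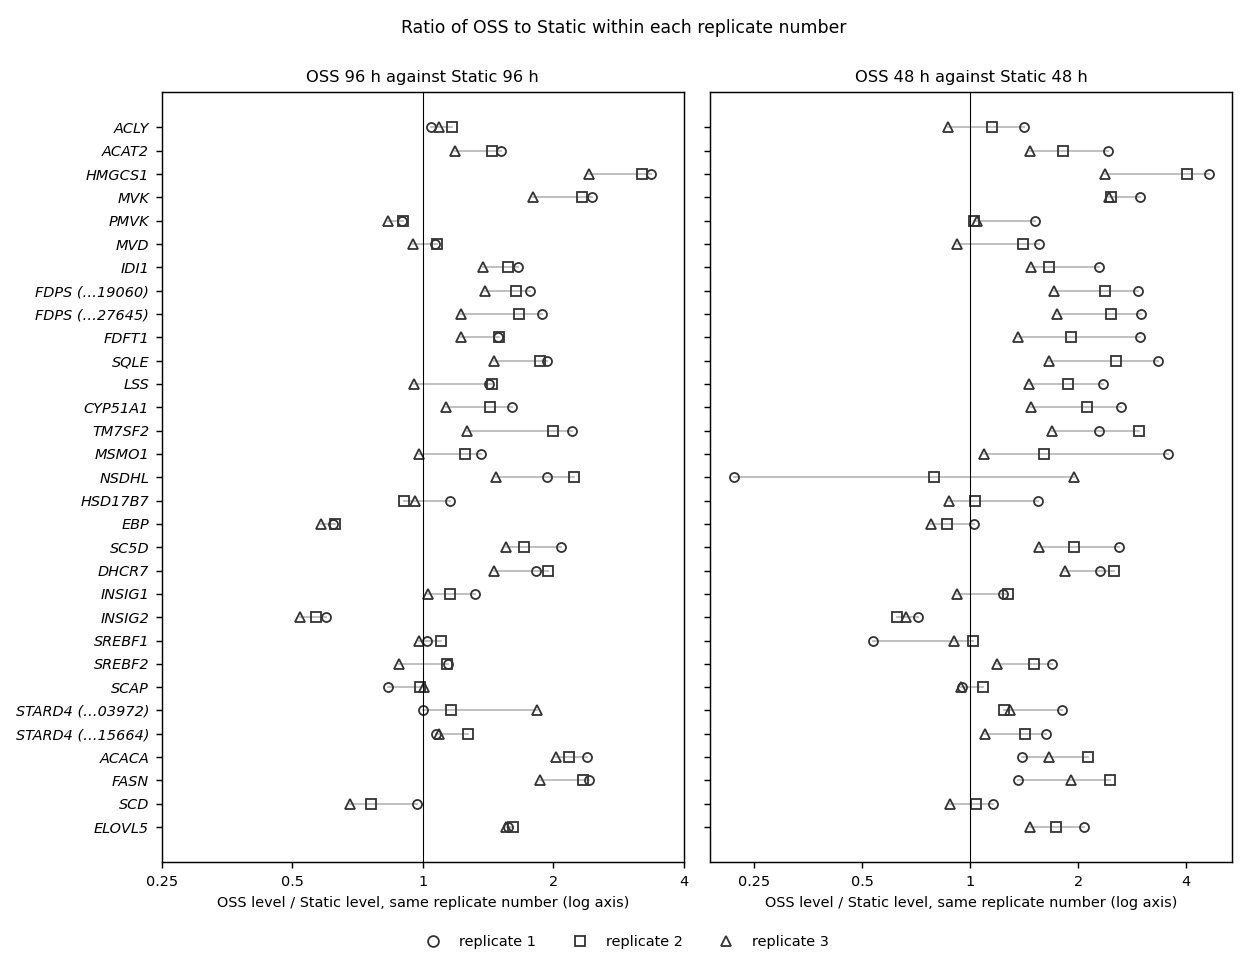
Ratio of OSS to Static level (log axes) of each tested identifier within replicates 1 (circle), 2 (square) and 3 (triangle), at 96 h (left) and 48 h (right). HMGCS1 lies at 3.36, 3.21 and 2.42 at 96 h, and at 48 h the NSDHL ratio of replicate 1 is the point farthest left.

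Along OSS culture some of these genes rose between 12 and 48 h, and none passed between 48 and 96 h. Between OSS 12 h and OSS 48 h, 9 of the 31 rose, none fell and 22 did not pass, beside 14.3% of all tested genes that rose and 12.8% that fell (27.1% in either direction). All 31 log2 fold changes were above 0, with a median of 0.35 (0.011 over all tested genes), and 30 were so without OSS 48 h replicate 3, with a median of 0.22. TM7SF2 rose by 0.99 (SE 0.23, edgeR adjusted p = 0.0128), with 20.4, 28.8 and 35.0 CPM in OSS 48 h and 12.7, 18.1 and 11.4 CPM in OSS 12 h. HMGCS1 rose by 0.97 (adjusted p = 0.0227), INSIG1 by 0.78, SCD by 0.74, DHCR7 by 0.71, STARD4 (ENSMODG00000015664) by 0.48, SREBF2 by 0.41, ACACA by 0.40 and SREBF1 by 0.33. Leaving out OSS 48 h replicate 1 gave 16 calls, whereas 4 were left without OSS 12 h replicate 3. Leaving out OSS 48 h replicate 3 gave 5 and leaving out OSS 48 h replicate 2 gave 6. Calls of DHCR7, INSIG1, ACACA and SCD held whichever library was left out. The other 5 lost theirs without 1 (TM7SF2) to 6 (SREBF1) single libraries, at adjusted p = 0.0511 to 0.116. With the block 12 passed (42.8% of all tested genes), LSS, EBP and SCAP being added (adjusted p = 0.0398, 0.00844 and 0.0114).

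Between OSS 48 h and OSS 96 h none of the 31 passed in edgeR, beside 1.14% of all tested genes in either direction (0.678% higher, 0.467% lower). At an unadjusted p under 0.05 there were 3 (NSDHL, INSIG1 and ACLY), and DESeq2 called 0. With the block ACLY alone was called (0.47, adjusted p = 0.0297), beside 19.2% of all tested genes.

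In static culture few of these genes passed. In Static 48 h against Static 0 h, SREBF1, SCAP (0.45, edgeR adjusted p = 0.0447) and INSIG2 rose, and no identifier fell, beside 14.8% of all tested genes that rose and 15.3% that fell (30.1% in either direction). The median log2 fold change was 0.060 with all libraries, -0.060 with the block and -0.033 without scaling factors. Leaving out Static 48 h replicate 1 moved it to 0.25 (22 of the 31 above 0), whereas leaving out replicate 3 of that condition moved it to -0.39 (7 above 0). When Static 48 h replicate 1 was left out 6 rose, among them EBP (0.83, adjusted p = 0.0121). When Static 48 h replicate 3 was left out 2 rose and 4 fell. There were 0 calls without Static 0 h replicate 1 or 3, and 1 without Static 0 h replicate 2 or Static 48 h replicate 2. With the block 7 passed (39% of all tested genes), MVK and both FDPS copies being lower and EBP higher.

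Between Static 48 h and Static 96 h none of the 31 passed in edgeR, 0 did so at an unadjusted p under 0.05 and DESeq2 called 0, beside 0.0389% of all tested genes (0 higher). With the block 0 passed as well, beside 0.802% of all tested genes. In Static 96 h against Static 0 h, EBP, STARD4 (ENSMODG00000015664) (0.79, adjusted p = 0.0197), SCAP (0.64, adjusted p = 0.0101) and INSIG2 rose and none fell. All tested genes passed in 32% (15.5% higher, 16.6% lower), so these 4 of 31 were below the background. SCAP lay at 188, 216 and 212 CPM in Static 96 h and 122, 136 and 129 CPM in Static 0 h, without overlap. The STARD4 call was lost without Static 96 h replicate 3 (0.0698) or any 1 of the Static 0 h libraries (0.0507 to 0.0587). The count was 2 without Static 96 h replicate 3 or Static 0 h replicate 1 or 3, and 9 with the block (41.1% of all tested genes). The 5 added by the block were MVD (0.63), INSIG1 (0.67) and SREBF2 (0.61), which were higher, and MVK (-0.56) and FASN (-0.36), which were lower.

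Set against the starting cells, 18 of the 31 were higher in OSS 96 h than in Static 0 h and none was lower, while 19.4% of all tested genes rose and 20.2% fell (39.6% in either direction). The median was 0.73, against -0.013 over all tested genes, and the 96 h more in culture cannot be told apart from OSS here. HMGCS1 rose by 1.91 (SE 0.42, edgeR adjusted p = 0.00195), DHCR7 by 1.39 (adjusted p = 0.000382) and TM7SF2 by 1.12 (adjusted p = 0.018, lost without OSS 96 h replicate 3, 0.0614, or Static 0 h replicate 3, 0.0691). ACLY, ACAT2, MVD, IDI1, SQLE, CYP51A1, SC5D, INSIG1, SREBF2, SCAP, both STARD4 copies, ACACA, FASN and ELOVL5 were the others that rose. ACLY, ACAT2, MVD and SC5D lost their calls without any 1 of the 6 libraries of these groups. Their adjusted p ran from 0.0521 (MVD without OSS 96 h replicate 1) to 0.17 (SC5D without OSS 96 h replicate 3). SQLE, SCAP, FASN and ELOVL5 lost theirs without some of these libraries (0.0501 to 0.101). The count was 9 when OSS 96 h replicate 3 was left out and 11 when replicate 2 of that condition was. With the block 22 passed, beside 50.7% of all tested genes. Without scaling factors 14 were higher and 1 lower.

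The change from 48 to 96 h was also compared between OSS and static cells. None of the 31 differed in edgeR, beside 0% of all tested genes. NSDHL was the 1 member at an unadjusted p under 0.05 (1.69, adjusted p = 0.311), DESeq2 called 0 of the 31, and with the block 0 were called, beside 1.07% of all tested genes. The median difference was -0.25 with 6 of the 31 above 0, but this turned with single libraries. Leaving out Static 48 h replicate 1 gave 0.016 with 16 above 0, whereas leaving out replicate 3 of that condition gave -0.60. It was -0.042 when Static 96 h replicate 3 was left out, -0.11 when OSS 48 h replicate 3 was and -0.40 when OSS 48 h replicate 1 was.

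Other genes of the same pathways were read from lists of related functions. Of 22 tested identifiers of other fatty acid and glycerolipid synthesis, 11 rose and 1 fell in OSS 96 h against Static 96 h, with a median of 0.34, beside 25.5% of all tested genes that rose and 26.2% that fell. GPAM, the mitochondrial acyltransferase that starts glycerolipid synthesis, lay at 405, 450.0 and 348 CPM in OSS 96 h and 120.2, 127 and 126 CPM in Static 96 h. It rose by 1.69 (SE 0.10, edgeR adjusted p = 4.26e-05), more than any of the 31, by 1.48 at 48 h and by 0.67 for OSS 12 h against Static 0 h, the last not without OSS 12 h replicate 2 (0.0521). FADS2, the delta-6 desaturase, rose by 1.24 (adjusted p = 0.0154, lost without OSS 96 h replicate 2, 0.053, or Static 96 h replicate 2, 0.0581), and MID1IP1, an activator of acetyl-CoA carboxylase, by 1.07 (adjusted p = 0.000799). At 48 h 8 of the 22 rose and none fell, beside 23.5% and 24.5% of all tested genes. For OSS 12 h against Static 0 h 5 rose and none fell, beside 6.45% and 6.65%.

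Of 13 tested identifiers of sterol export, storage and movement, 7 rose and 3 fell at 96 h (median 0.46), beside 25.5% and 26.2% of all tested genes. ABCA1, the exporter of cholesterol to apolipoproteins, lay at 148, 163 and 179 CPM in OSS 96 h and 648, 639.9 and 599 CPM in Static 96 h. The difference was there in the early libraries, with 72.2, 86.6 and 108 CPM in OSS 12 h and 261, 377 and 278 CPM in Static 0 h. No library overlapped at any of these times, and ABCA1 fell, with log2 fold changes of -1.95 (SE 0.081, edgeR adjusted p = 1.3e-05) at 96 h, -2.32 (adjusted p = 2.41e-07) at 48 h and -1.75 (adjusted p = 0.00733) against Static 0 h. LIPA, the lysosomal lipase that frees cholesterol from its esters, fell at 96 h (log2 fold change -1.05, adjusted p = 0.000715), and so did NR1H3, which encodes the oxysterol receptor LXR alpha (-0.78, adjusted p = 0.000143). TMEM97, a sterol regulated membrane protein, rose by 0.82 (adjusted p = 0.00142), and SOAT1, which esterifies cholesterol, was higher in both of its identifiers (0.74 and 0.72).

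**Figure D5:**
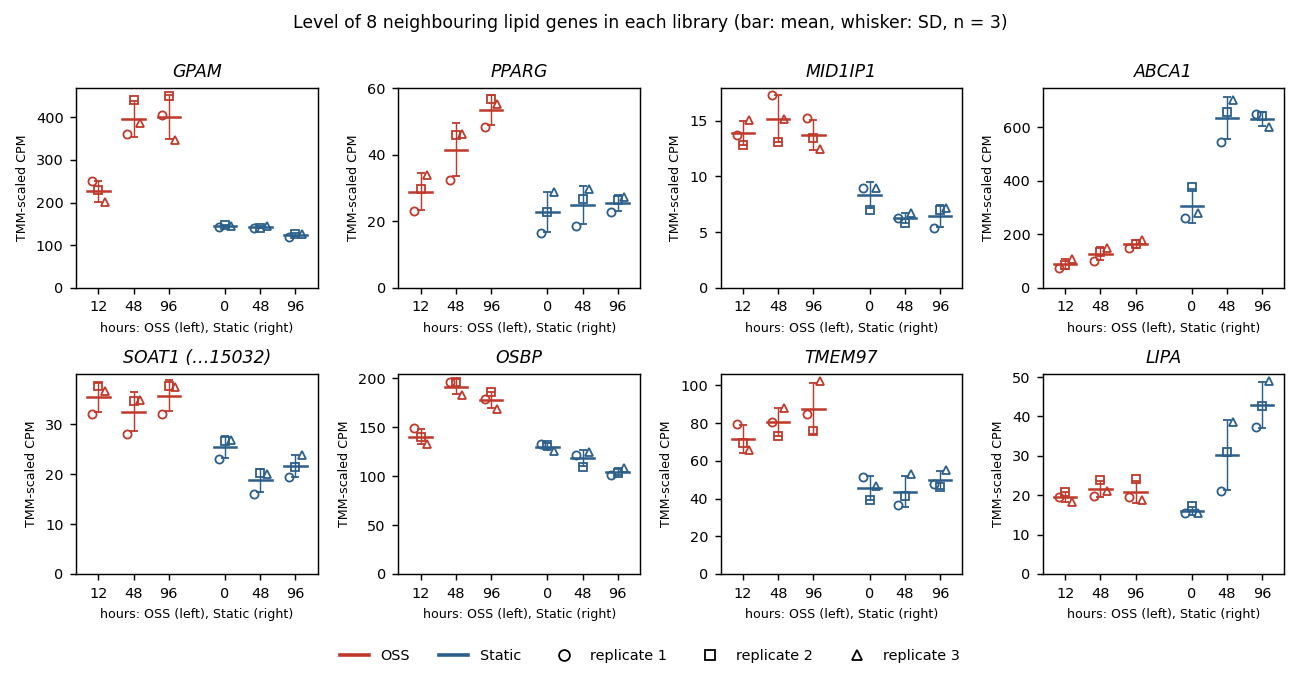
TMM-scaled CPM (vertical axes, from 0) of 8 related lipid genes in each library, by hours under OSS (red, left) and static conditions (blue, right), with bars for the mean, whiskers for the SD of 3 libraries and symbols for the replicate number. ABCA1 stays at or under 179 CPM in all OSS libraries and at or above 261 CPM in all static ones, and GPAM is higher in every OSS library than in every static one.

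Later sterol and isoprenoid branches were divided, with 5 of 12 higher and 1 lower at 96 h (median 0.079), beside 25.5% and 26.2% of all tested genes. LBR, a sterol reductase of the nuclear envelope, fell (-0.46, edgeR adjusted p = 0.00422). Of 11 tested genes of SREBP processing and sterol control, 4 rose and 5 fell at 96 h (median -0.22), against the same background, with ERLIN1 at 0.46, FAF2 at 0.41 and RNF145 at -0.49.

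Lists of 2 other processes moved with OSS at 96 h. All 8 tested identifiers of the proliferation list rose, beside 25.5% of all tested genes (summed level 1169.7 to 1371 CPM in OSS 96 h and 797 to 891 CPM in Static 96 h), with BUB1 at 0.84 and PCNA at 0.63. At 48 h the sums were 780.2 to 785 CPM under OSS and 616 to 669 CPM under static conditions, and 3 of 8 rose, beside 23.5% of all tested genes. Of these, BUB1 and 1 of the CDK1 identifiers lost their calls when OSS 48 h replicate 1 or 2 or Static 48 h replicate 3 was left out (0.0506 to 0.138), which left PCNA. All 8 of the hypoxia response list fell at both times, beside 26.2% of all tested genes at 96 h and 24.5% at 48 h (median -2.41 at 96 h and -2.46 at 48 h), with sums of 525 to 587 CPM in OSS 96 h and 1732 to 2039.9 CPM in Static 96 h. At 96 h the log2 fold changes of ADM and ENO2 were -5.33 and -3.94. The 31 lipid synthesis identifiers summed to 5182 to 6995 CPM in OSS 96 h and 3548 to 5400.0 CPM in Static 96 h, which overlap. The part of proliferation and hypoxia in the lipid gene differences was not tested.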

How the data were processed

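RNA was measured in 18 libraries of OK cells, 3 for each of 6 conditions, grouped by the stress and time in their labels. The authors depleted rRNA, made stranded libraries of total RNA and sequenced 75 bp paired reads. They trimmed with cutadapt, aligned to the opossum genome MonDom5 with TopHat2 and counted with featureCounts of Subread. Tool versions and the strand setting of the counting are not given in the sources used here. The deposited values are raw counts per Ensembl gene, whole numbers, with a deposited gene length used only for levels per kilobase. Columns of spreadsheet averages and repeated counts were not used.

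The genes, and the lists of related genes, were chosen with earlier results of these data known. Symbols are those of the deposited table, taken from human where the opossum column was empty (DHCR7, INSIG1 and both copies of FDPS and STARD4). Every identifier of a symbol was kept. Sequences and coordinates were not used here.

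Counts were tested in R 4.3.3 with edgeR 4.0.16 (TMM, trended qCML dispersions, legacy quasi-likelihood F-test) and limma 3.58.1. The filter was more than 1 CPM in at least 6 of 18 libraries, which kept 12840 of 23899 genes, and p-values were adjusted over all of them by Benjamini-Hochberg at 0.05. SE was obtained from the log2 fold change and its F statistic. The fits for 96 h (OSS against Static) and for OSS 12 h against Static 0 h used only those 6 libraries, steps along OSS or Static used the 9 libraries of that culture, and all 18 served for the rest. Genes with values in every library are those called at 96 h, the 3 largest called changes of each other comparison, the SREBP and INSIG group with SCAP, and HMGCS1, SQLE, FASN and SCD. Of each related list up to 3 called genes with the largest changes per comparison, a few of them only in a picture, and some others chosen after their values were seen (NR1H3, PPARG, OSBP, SOAT1) were shown. A few genes of these lists are not reported here.

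Replicate numbers come from the sample titles. Deviations from the condition mean were correlated between same-numbered libraries of different conditions in all 45 pairs (0.279 to 0.790, median 0.548, log2 CPM with a prior count of 2), and between other numbers at -0.687 to 0.451. The numbers were therefore taken as pairing, and a fit with the replicate number as a block was run for every comparison. Replicates of a condition differed beyond counting error (chi-square per gene 25.1 to 264). Other alternatives were DESeq2 1.42.0, edgeR without the legacy form, no scaling factors, no filter on low counts, another set of libraries in the fit, and leaving out each library. Fits were first tested on simulated counts. Figures were drawn with matplotlib 3.10.9.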

Additional observations from a re-analysis of the deposited data

How the results depend on the processing

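Of the related genes, up to 3 called ones per list and comparison were run under the alternatives, for OSS against Static only. None of their calls reversed direction, and NR1H3 and SOAT1 at 96 h were not run. Nor did any call of the 31 tested identifiers reverse its direction under the alternatives run. With the replicate block, the number of these genes called was 23 in place of 10 for OSS 96 h against Static 96 h, 20 in place of 5 for OSS 12 h against Static 0 h, 1 in place of 0 for OSS 96 h against OSS 48 h, 7 in place of 3 for Static 48 h against Static 0 h and 9 in place of 4 for Static 96 h against Static 0 h. Over all genes the block gave 5294 calls in place of 1682 (OSS 12 h against Static 0 h), 5493 in place of 3480 (OSS 48 h against OSS 12 h), 2466 in place of 147 (OSS 96 h against OSS 48 h), 103 in place of 5 (Static 96 h against Static 48 h) and 138 in place of 0 (the OSS minus Static difference of the 48 to 96 h change). The block ended no call of these genes. DESeq2 called 8 of them for OSS 12 h against Static 0 h, and over all genes 2788 there, 1105 for OSS 96 h against OSS 48 h, 286 for Static 96 h against Static 48 h and 225 for the OSS minus Static difference of the 48 to 96 h change. Other sets of libraries in the fit gave 7 (OSS 48 h against Static 48 h, own 6 libraries) and, with all 18 libraries, 1 (OSS 12 h against Static 0 h), 5 (OSS 48 h against OSS 12 h) and 7 (Static 96 h against Static 0 h). With all 18, calls over all genes were 3107 for OSS 12 h against Static 0 h, 310 for OSS 96 h against OSS 48 h and 59 for Static 96 h against Static 48 h, where no filter gave 8.

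Leaving out 1 library gave 7 to 19 calls among these genes for OSS 96 h against Static 96 h, 8 to 22 for OSS 48 h against Static 48 h, 0 to 6 for OSS 12 h against Static 0 h, 4 to 16 for OSS 48 h against OSS 12 h, 9 to 14 for OSS 96 h against Static 0 h, 0 to 6 for Static 48 h against Static 0 h and 2 to 5 for Static 96 h against Static 0 h. Over all genes it gave 71 to 1695 calls for OSS 12 h against Static 0 h, 2173 to 3107 for OSS 48 h against OSS 12 h, 1 to 15 for OSS 96 h against OSS 48 h, 0 to 13 for Static 96 h against Static 48 h, 2605 to 3726 for Static 96 h against Static 0 h and 0 to 24 for the OSS minus Static difference of the 48 to 96 h change. For OSS 96 h against Static 96 h the calls over all genes were 5438 to 6354, and for OSS 48 h against Static 48 h 5306 to 6052. Fits without a library rest on fewer samples, and calls among these genes went up in some of them and down in others. The cause of these shifts was not tested.

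Without scaling factors the share of higher genes among all calls was 36% in place of 52.8% for OSS 48 h against OSS 12 h, 36.6% in place of 49% for OSS 96 h against Static 0 h, 37.2% in place of 49.2% for Static 48 h against Static 0 h and 32% in place of 48.3% for Static 96 h against Static 0 h, where the median of all tested genes was -0.15 in place of -0.033. Each library pools 3 experiments, and p-values measure the spread between such pools. NSDHL and the rare STARD4 copy had the lowest median counts of the tested identifiers (132.5 and 84 per library).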
